A study of Mus musculus with 8 samples.

Results

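Accessible chromatin was described at 6 survival genes of activated mouse CD4 T cells: Bcl2, Bcl2l1, Mcl1, Bcl2l11, Pim1 and Pim2. Members are the ATAC-seq peaks that overlap the RefSeq gene body of one of these genes, extended by 10 kb on both sides. Overlapping peaks of all libraries were merged into regions. The 6 windows held 110 of the 175276 regions of the series, with 631 of its 835203 peaks.

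ATAC-seq uses a transposase to insert adapters into open DNA. Naive CD4 T cells of mouse spleen were sorted and activated with antibodies to CD3 (0.25 µg/mL) and CD28 (1 µg/mL) in the presence of 20 ng/mL TGF-β, conditions that induce regulatory T cells, and were harvested at 48 h. Control cells, also labelled WT, and cells with a conditional double knockout of Tet1 and Tet3 (Tet1/3 cDKO) were each cultured without or with 100 U of IL-2. The TGF-β and both antibodies are thus shared by all 4 groups, each of which has 2 libraries from 90000 cells a sample. The sources used here do not give the Cre driver, the age of the mice or which animals gave which library, so spreads and p-values describe these libraries, and in a bulk sample more open cells and more openness per cell cannot be told apart.

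Survival of a T cell depends on the balance within the BCL2 protein family at the outer mitochondrial membrane. BCL2, BCL-XL (from Bcl2l1) and MCL1 hold back the pore formers that release cytochrome c, and BIM (from Bcl2l11) binds and neutralises these guardians. PIM1 and PIM2 are constitutively active serine/threonine kinases that promote survival and growth, and their genes and Bcl2 are known targets of cytokine signalling through STAT5, the pathway IL-2 acts through. TET enzymes oxidise methylated cytosine in CpG dinucleotides.

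RefSeq lists 10 transcript starts for the 6 genes in GRCm38.p6, the build of the peak lists, and 8 of them lay in a region listed in every library. The sequences of 3 promoters, each the 250 bases before a start on the gene's strand, are shown: Pim2 because its start region separated the genotypes, Bcl2l1 because its start region ranked above the others in all libraries but 1, and Bcl2 because most of the IL-2 results concern that gene. Capitals mark the letters GGGCGG (a GC box) or TGACGT (the core of a cyclic AMP response element) on either strand, and none of these matches overlap.
Pim2, chrX:7878056-7878305, plus strand: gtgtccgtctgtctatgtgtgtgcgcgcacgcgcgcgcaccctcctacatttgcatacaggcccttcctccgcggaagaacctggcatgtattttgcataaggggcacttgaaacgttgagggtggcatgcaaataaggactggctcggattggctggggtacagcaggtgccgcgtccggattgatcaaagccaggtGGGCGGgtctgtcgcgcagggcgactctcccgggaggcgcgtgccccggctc
Bcl2l1, the farthest upstream start, chr2:152831729-152831978, minus strand: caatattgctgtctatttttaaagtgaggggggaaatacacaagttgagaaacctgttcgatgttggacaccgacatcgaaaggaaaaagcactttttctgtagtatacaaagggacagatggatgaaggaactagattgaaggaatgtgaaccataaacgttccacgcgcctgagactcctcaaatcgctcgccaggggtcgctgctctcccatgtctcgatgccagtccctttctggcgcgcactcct
Bcl2, chr1:106714291-106714540, minus strand: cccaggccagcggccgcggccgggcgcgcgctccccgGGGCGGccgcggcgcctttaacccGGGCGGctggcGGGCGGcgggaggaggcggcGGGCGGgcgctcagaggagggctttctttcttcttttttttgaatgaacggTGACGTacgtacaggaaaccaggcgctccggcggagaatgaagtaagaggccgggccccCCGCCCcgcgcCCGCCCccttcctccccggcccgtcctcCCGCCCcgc

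The Bcl2 promoter holds 36 CpG dinucleotides in 250 bases, and 2.58% of all 32841 promoter windows hold as many. Pim2 has 22 (14.8% of windows have as many) and the Bcl2l1 window 12 (33.5%). There are 7 GC boxes at Bcl2, 1 at Pim2 and 0 in the Bcl2l1 window shown, and 32.7% of all windows hold at least 1. The upstream Pim1 window, not shown, resembles Bcl2 with 36 CpG dinucleotides and 7 GC boxes. The TGACGT core at Bcl2 lies 107 bases before the start, and 6.47% of windows hold one. Of the 10 windows, 0 hold the STAT letters TTCNNNGAA, which 7.02% of all windows hold, and 0 hold the AP-1 letters TGANTCA (6.75%). These are matches of letters on both strands and not binding sites.

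The deposited lists held 65811 to 145979 peaks a library, and list length followed no group. Libraries were therefore compared on equal-number lists, cut after the 65811 strongest peaks by −log10 p. A rank of 1 is the strongest peak of a library, and a region takes the rank of its best peak. Regions over a RefSeq start made up 15.2% to 16.4% of each equal-number list. The median rank of the start regions present in all 8 lists ran from 8496 in control plus IL-2 replicate 2 to 10520 in control without IL-2 replicate 1. These libraries had the shortest and the longest deposited list. The part of this spread in the ranks below was not tested. T cell genes were open as the label says: the starts of Cd3e, Cd3g and Lck were listed in all 8 libraries and the Cd4 gene body held 2 to 4 regions. Of the markers of other cells with a start in the table, the starts of Cd79a, Pax5, Klrb1c, Ncr1, Lyz2, Klf1, Hbb-bs and Epor were listed in 0 libraries, that of Itgam in 2 and that of Cd8a in 3. All of these were cDKO libraries: Cd8a in replicate 1 without IL-2 and both replicates with it, and Itgam in replicate 2 of each arm, with best ranks of 55147 and 56350, near the end of the lists. Their part in the genotype results was not tested. The gene bodies of Pax5 and Itgam still held 3 to 5 regions and that of Spi1 3 to 4, while those of Ms4a1, Ncr1, Lyz2 and Hbb-bs held 0.

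Of the 110 member regions, 75 were in at least 1 equal-number list and 37 in all 8, which is 49.3% of the 75. Over the whole series 42.4% of such regions were in all 8. The other 35 member regions appeared only further down the deposited lists. By gene, regions in all 8 lists numbered 15 of 37 at Bcl2, 6 of 14 at Bcl2l1, 6 of 9 at Mcl1, 5 of 8 at Bcl2l11, 3 of 4 at Pim1 and 2 of 3 at Pim2. Per 10 kb of window this was 0.765 at Bcl2, whose gene body spans 176 kb, against 2.29 at the compact Mcl1.

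Every gene had an open start in every library. The Bcl2l1 start region (chromosome 2, 152830271 to 152831842), which covers 2 starts, ranked above the other start regions in every library but control plus IL-2 replicate 1, where Pim2 ranked 5104. Its ranks were 4650 and 2956 in control without IL-2, 4475 and 3017 in cDKO without IL-2, 6993 and 3415 in control plus IL-2 and 1490 and 5818 in cDKO plus IL-2. The groups overlapped by genotype and by IL-2. The start region of Mcl1 (chromosome 3, 95658258 to 95659756) ranked between 4839 and 13868, that of Pim1 (chromosome 17, 29490143 to 29491659) between 7873 and 18575, and that of Bcl2 (chromosome 1, 106713775 to 106714878) between 10822 and 28552. At these 3 genes the highest rank came from control plus IL-2 replicate 2 and the lowest from control without IL-2 replicate 1, the libraries at either end of the range for all starts. Bcl2l11 has 2 open starts: a region at chromosome 2, 128125644 to 128126413, which also overlaps Acoxl, ranked 11296 to 29340, and a region at 128126911 to 128128109 ranked 8630 to 11727, the narrowest range among the start regions. A further Pim1 start lay in a region that no equal-number list held.

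**Figure D1:**
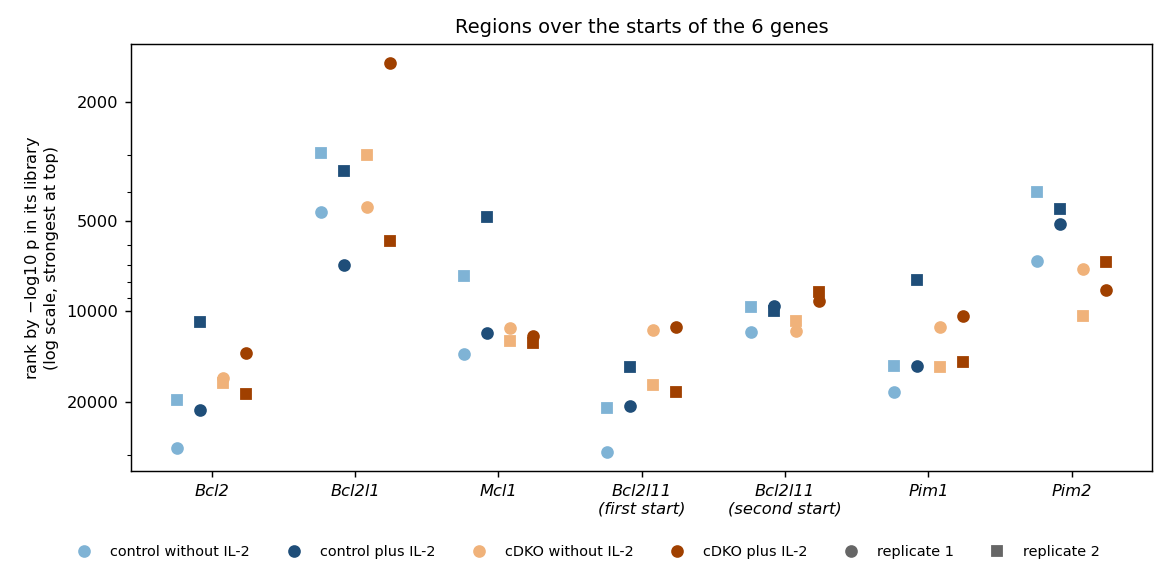
Ranks of the 7 start regions that all 8 libraries list (log axis, rank 1 is the strongest peak), by library and group. Bcl2l1 ranks 1490 to 6993, above the other starts except in control plus IL-2 replicate 1, and the 4 control libraries of Pim2 (3997 to 6779) lie above its 4 cDKO libraries (6863 to 10386).

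Bcl2, whose product keeps T cells alive by blocking mitochondrial cell death, had fewer listed regions in cDKO than in control libraries. Control libraries without IL-2 listed 26 and 25 regions and those with IL-2 27 and 29, against 22 and 22 in cDKO without IL-2 and 22 and 24 with it. The genotypes did not overlap: cDKO held 22.5 ± 1.00 regions and control 26.8 ± 1.71 (SD, n = 4 each), a difference of -4.25. The exact 2-sided permutation test over 70 relabellings gave its smallest possible p, 0.0286. Run over 17547 protein-coding genes, the test called 0 at an adjusted p of 0.05 or less, and the adjusted p for Bcl2 was 0.898. At an unadjusted p under 0.05, 287 genes (1.64%) were lower and 271 (1.54%) higher in cDKO. The direction turned to 0.5 regions more in cDKO when the lists were halved, and in the full deposited lists the difference was -4.25 with p = 0.457 (exact permutation test).

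The other 5 genes showed no such gap. Mcl1 had 7 regions in each cDKO library and 6 to 8 in control, Bcl2l1 9 to 11 and 9 to 12, Bcl2l11 6 to 8 and 7 in each, Pim1 3 in each and 3 or 4, and Pim2 3 in each and 2 or 3. Each differed by 0.25 regions on average (exact permutation p = 1.00, adjusted p = 1.00). For IL-2, Bcl2 had 25.5 ± 3.11 regions with and 23.8 ± 2.06 without (SD, n = 4 each; exact permutation p = 0.486). Mcl1 and Bcl2l11 each had 7.5 ± 0.577 with and 6.75 ± 0.5 without IL-2 (exact permutation p = 0.286 for each), and every adjusted p was 1.00. Over all genes, 0 were called for IL-2 by this permutation test, with 98 (0.559%) higher and 95 (0.541%) lower at an unadjusted p under 0.05.

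**Figure D2:**
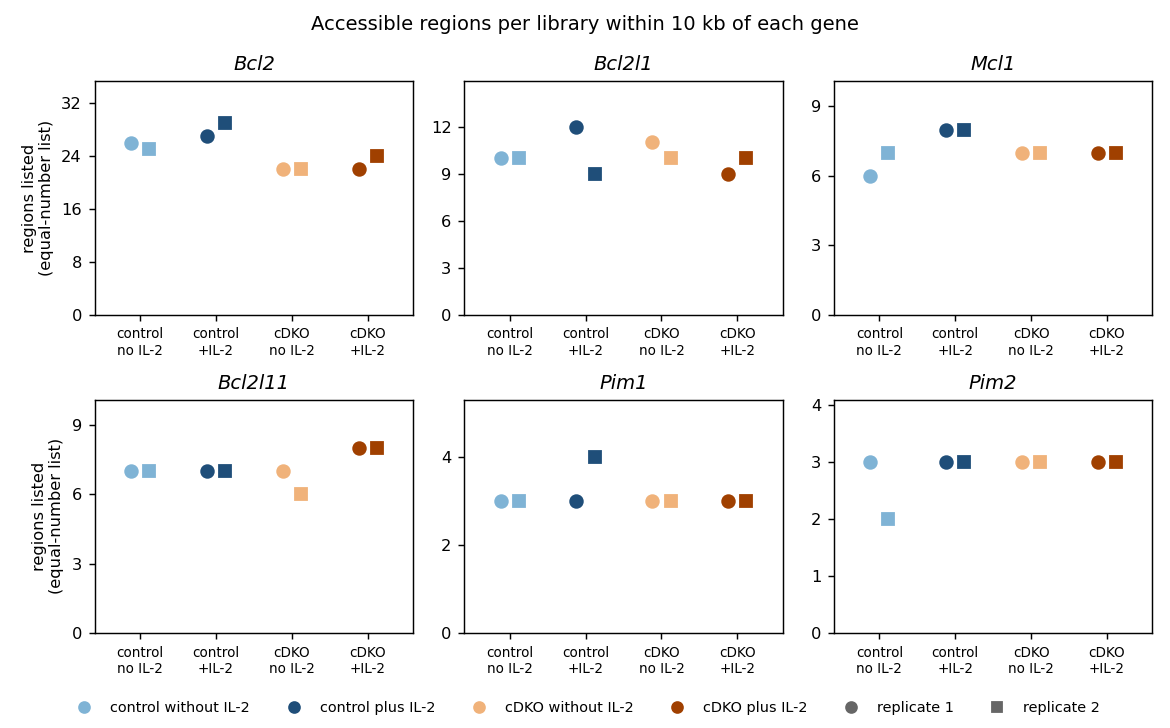
Number of regions in the equal-number list of each library (y axis, from 0) within 10 kb of each gene, by group. All 4 cDKO libraries list 22 to 24 Bcl2 regions and all 4 control libraries 25 to 29, while the genotypes overlap at the other 5 genes.

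At Bcl2, IL-2 went with higher ranks at a group of neighbouring regions deep inside the gene. Among the 37 member regions in all 8 lists, 6 ranked higher in every library with IL-2 than in any library without it (16.2%, against a background of 2.77% of 40694 regions), and 1 ranked lower in every one (2.70%, background 3.01%). Of the 6, 5 lay in Bcl2, which has 15 such regions, and 1 lay beyond Pim1. These counts describe 4 libraries a side and carry no test.

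The largest shift as a ratio of median ranks, 6.32, was at a region 107 kb downstream of the Bcl2 start (chromosome 1, 106606900 to 106607379). It ranked 7172 and 9658 in control without IL-2 and 15814 and 9795 in cDKO without IL-2. With IL-2 it ranked 548 and 1922 in control and 2307 and 1157 in cDKO. The rank of 548 was the highest of any member peak in any library. In cDKO plus IL-2 replicate 1 the Bcl2l1 start region, at 1490, ranked above this region. The step was present in both genotypes, and the libraries with and without IL-2 were far apart in rank. The authors' fold over background at the same peak was 12.8, 13.0, 13.4 and 13.9 without IL-2 and 15.7, 13.6, 15.9 and 14.2 with it, so on that scale the values lay close together and overlapped. Summits of the 8 peaks fell within 98 bp of each other.

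It is flanked by 3 others. The 4 regions between 106600561 and 106617383, a stretch of 16.8 kb that lies 97.1 to 113 kb downstream of the start, are all the regions of that stretch that every library lists, and all 4 ranked higher with IL-2. The region at 106600561 to 106601608 ranked 8917, 13809, 16585 and 11264 without IL-2 (control replicates 1 and 2, then cDKO replicates 1 and 2) and 8532, 7368, 8506 and 7369 with it, in the same order. The gap there was narrow. At 106612394 to 106613261 the ranks were 14585, 11242, 19266 and 14420 without and 9737, 7095, 9169 and 11164 with IL-2. The weakest of the 4, at 106616976 to 106617383, ranked 38165, 29841, 33275 and 37370 without and 26547, 12012, 24627 and 25039 with IL-2. The fifth Bcl2 region lay 1.76 kb downstream of the start (106712240 to 106712812), at 37339 to 47493 without and 24826 to 36871 with IL-2, a narrow gap, while the start region itself overlapped between the arms. Of the 11 Bcl2 regions in all lists outside the stretch, this was the only 1 apart by IL-2.

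Ranking by the authors' fold in place of −log10 p ended all 6 of these calls. It left 23 member regions in all 8 lists, of which 1 ranked higher in every IL-2 library, another Bcl2 region 36.0 kb downstream of the start (106678029 to 106678539) with fold ranks of 2987 to 8815 with and 10698 to 14206 without IL-2. By fold, the region 107 kb downstream ranked 2859 to 7684 with IL-2 and 7315 to 14720 without, and the arms overlapped. Without control plus IL-2 replicate 2, 4 member regions in place of 1 ranked lower in every remaining IL-2 library.

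**Figure D3:**
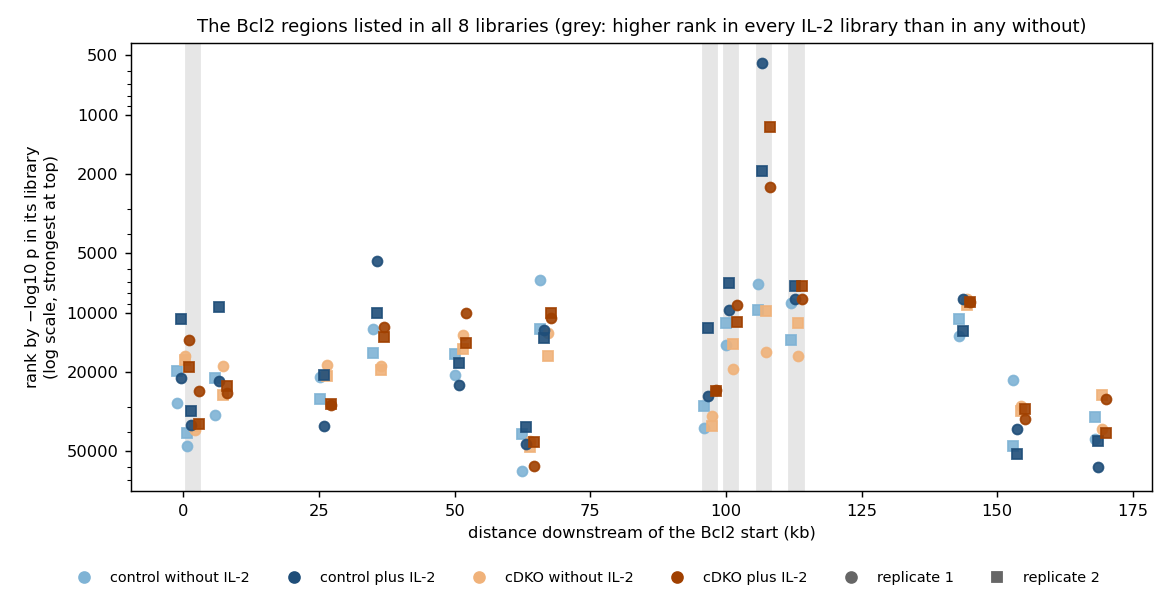
Ranks (log axis, strongest at the top) of the 15 Bcl2 regions listed in all 8 libraries against distance downstream of the Bcl2 start in kb, with points spread sideways by group. Grey bands mark the 5 regions where every library with IL-2 ranks higher than any without, and the region at 107 kb reaches ranks 548 to 2307 with IL-2 against 7172 to 15814 without.

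Pim1 encodes a kinase induced by cytokines. Its promoter and a region inside the gene (29494234 to 29494660) overlapped between the arms. A region 3.52 kb beyond the gene (chromosome 17, 29499633 to 29501083) ranked 29543 and 20557 in control and 22377 and 25941 in cDKO without IL-2, against 18007 and 13176 in control and 11728 and 17453 in cDKO with it. All 4 IL-2 libraries ranked higher. Its fold was 5.93, 6.89, 8.37 and 7.29 without and 6.08, 5.87, 7.64 and 6.03 with IL-2, in the same order, and did not follow the ranks.

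In the equal-number lists, Bcl2l11 held the only member region listed by every IL-2 library and by no library without IL-2. That is 1 of 75 regions (1.33%, background 0.348%), and 0 were listed the opposite way (background 0.229%). The region lies inside the gene, 32.3 kb downstream of the nearer start (chromosome 2, 128159712 to 128160092). It ranked 37763 and 38763 in control plus IL-2 and 43511 and 39975 in cDKO plus IL-2. Without IL-2 it lay outside the equal-number lists at 77057 and 86412 in control and 76228 and 73383 in cDKO, and all 8 deposited lists held it. The fold was 6.81, 4.94, 6.14 and 6.32 with IL-2, against 5.05, 3.40, 4.12 and 4.15 without it, so the cDKO arms were apart and the control arms overlapped. The listing was the same when peaks were ranked by fold. The stronger neighbouring region (128158797 to 128159438), in all 8 lists, ranked 15085 to 32967 without IL-2 and 20493 to 31448 with it. With halved lists, or when peaks had to cover 50% of a region, 0 member regions were called, and 2 were without control plus IL-2 replicate 2. With full deposited lists the region called was another, 5.69 kb outside Pim1 on its upstream side (chromosome 17, 29484918 to 29485097). It ranked 79539 and 56495 in control plus IL-2 and 72003 and 92607 in cDKO plus IL-2, and no list without IL-2 held it.

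Mcl1, a short-lived guardian that naive and activated T cells need, had the single region that ranked lower with IL-2. It lies 2.94 kb beyond the gene (chromosome 3, 95666115 to 95666426) and ranked 29286 and 26667 in control and 28374 and 19508 in cDKO without IL-2, against 35414 and 36102 in control and 32732 and 32190 in cDKO with it. Its fold overlapped, at 4.94, 4.37, 5.41 and 6.06 without IL-2 and 4.29, 3.25, 4.86 and 4.81 with it. With halved lists or by fold, 0 member regions ranked lower in every IL-2 library. The Mcl1 start region overlapped between the arms.

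**Figure D4:**
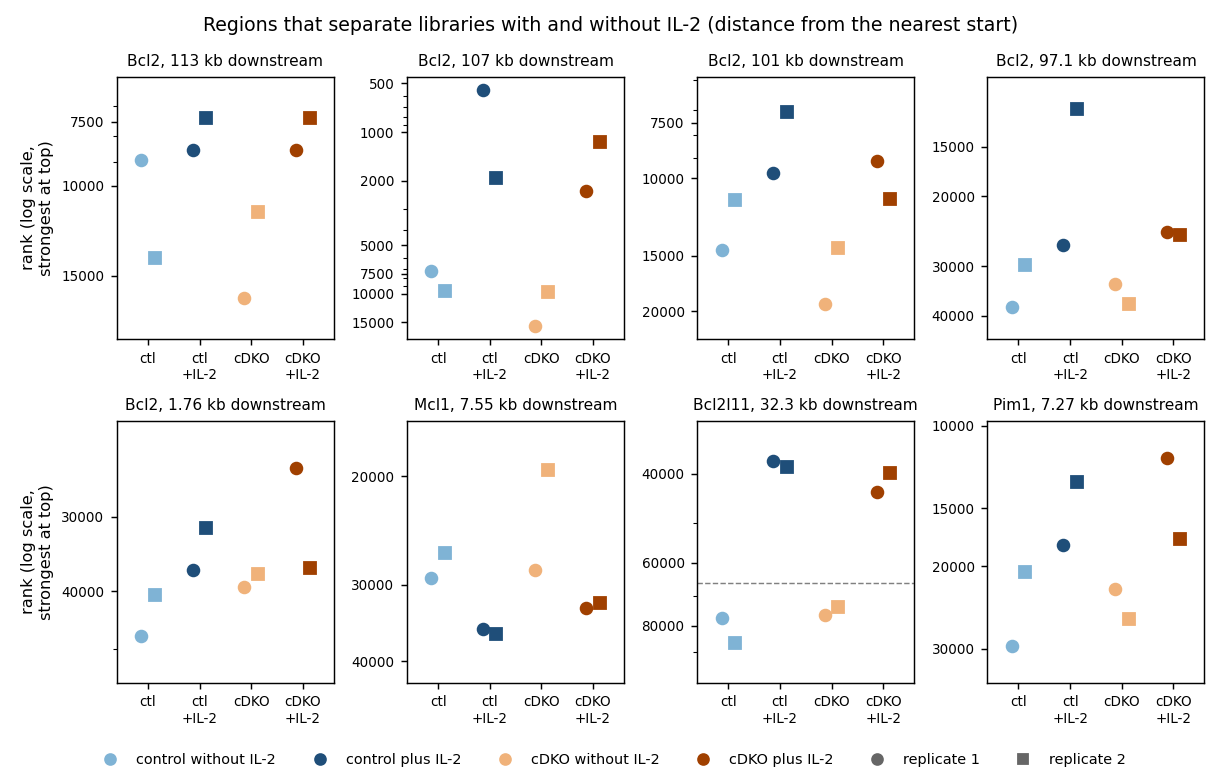
Ranks (log axis, strongest at the top) by group of the 8 member regions that separate libraries with and without IL-2. The dashed line is the last rank of the equal-number lists, 65811, which the 4 libraries without IL-2 miss at the Bcl2l11 region.

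By genotype, the ranks of Pim2 stood apart. This kinase gene on chromosome X had 2 regions in all 8 lists and both ranked lower in every cDKO library than in any control library. The start region (7877664 to 7878977), whose promoter is printed above, ranked 6779 and 3997 in control without IL-2 and 5104 and 4543 with it. In cDKO it ranked 7195 and 10386 without and 8484 and 6863 with IL-2. The closest values, 6779 and 6863, almost met. The other of the 2 regions (7883822 to 7884548) touches the neighbouring gene Slc35a2, 0.39 kb beyond Pim2. It ranked 22725, 20243, 21937 and 15544 in control and 28782, 27351, 27464 and 31944 in cDKO (replicates 1 and 2 without IL-2, then with it). By rank of fold this second region kept the genotypes apart, at 16978 to 31660 in control and 32409 to 42131 in cDKO, and the start region did not. The fold itself overlapped there, at 9.94, 8.89, 9.21 and 8.76 in control and 8.78, 8.99, 8.17 and 7.84 in cDKO. Pim2 fold at the start was 12.1, 12.6, 12.5 and 11.1 in control and 12.2, 10.8, 11.6 and 11.6 in cDKO, which overlapped. The remaining Pim2 region, inside the gene (7879874 to 7880110), went the opposite way and was in 7 equal-number lists. In control it ranked 46743 and 70386 without IL-2, the latter past the list's end, and 41748 and 61253 with it. Every cDKO library ranked it higher, at 39610 and 39393 without and 34315 and 32000 with IL-2. Its fold overlapped between the genotypes.

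Over all members, 3 of the 37 regions ranked lower in every cDKO library (8.11%, background 5.72%) and 1 ranked higher (2.70%, background 6.15%). The third lower region lies 5.70 kb outside Mcl1, on its upstream side (95650320 to 95651246), at 21073, 16235, 15305 and 8339 in control and 29512, 21705, 22219 and 23927 in cDKO. The closest values, 21073 and 21705, almost met. The fold at this region overlapped, at 7.90, 8.67, 8.32 and 9.70 in control and 7.61, 8.97, 8.31 and 7.68 in cDKO. The higher region lies in Bcl2, 51.1 kb downstream of the start (106662979 to 106663492), at 20800, 16177, 23312 and 17952 in control and 12974, 15364, 10008 and 14303 in cDKO. Its fold was 10.4, 10.6, 9.71 and 8.86 in control and 12.8, 11.7, 14.3 and 11.8 in cDKO, so every cDKO value lay above every control value. The count of 1 higher region was 3 without control without IL-2 replicate 1, 4 without its replicate 2, 2 without control plus IL-2 replicate 1, 3 without its replicate 2 and 3 without cDKO plus IL-2 replicate 2, and it stayed at 1 without each of the other cDKO libraries. Ranked by fold, 1 region was lower and 0 were higher.

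In the presence of regions, 1 member region was listed by all 4 cDKO libraries and no control library (1.33% of 75, background 0.706%), and 1 by all 4 control libraries and no cDKO library (1.33%, background 1.12%). The cDKO region lies 4.46 kb outside Mcl1 (95652272 to 95652479), close to the region that ranked lower. It ranked 62339 and 56057 in cDKO without and 52085 and 64216 with IL-2, near the end of the lists. Of the control deposited lists, that of replicate 1 without IL-2 held it, at 91612. The control region lies in Bcl2, 13.4 kb downstream of the start (106700616 to 106701217), and ranked 46264 and 44028 without and 31124 and 33036 with IL-2. In cDKO without IL-2 it ranked 68690 and 107549 in the deposited lists, and neither cDKO list with IL-2 held it. Neither call was made with full deposited lists, with halved lists or by fold. Leaving out a library can only add calls of this kind: 2 regions were higher without cDKO without IL-2 replicate 2, and 2 were lower without either replicate of control without IL-2, and also without cDKO plus IL-2 replicate 1.

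**Figure D5:**
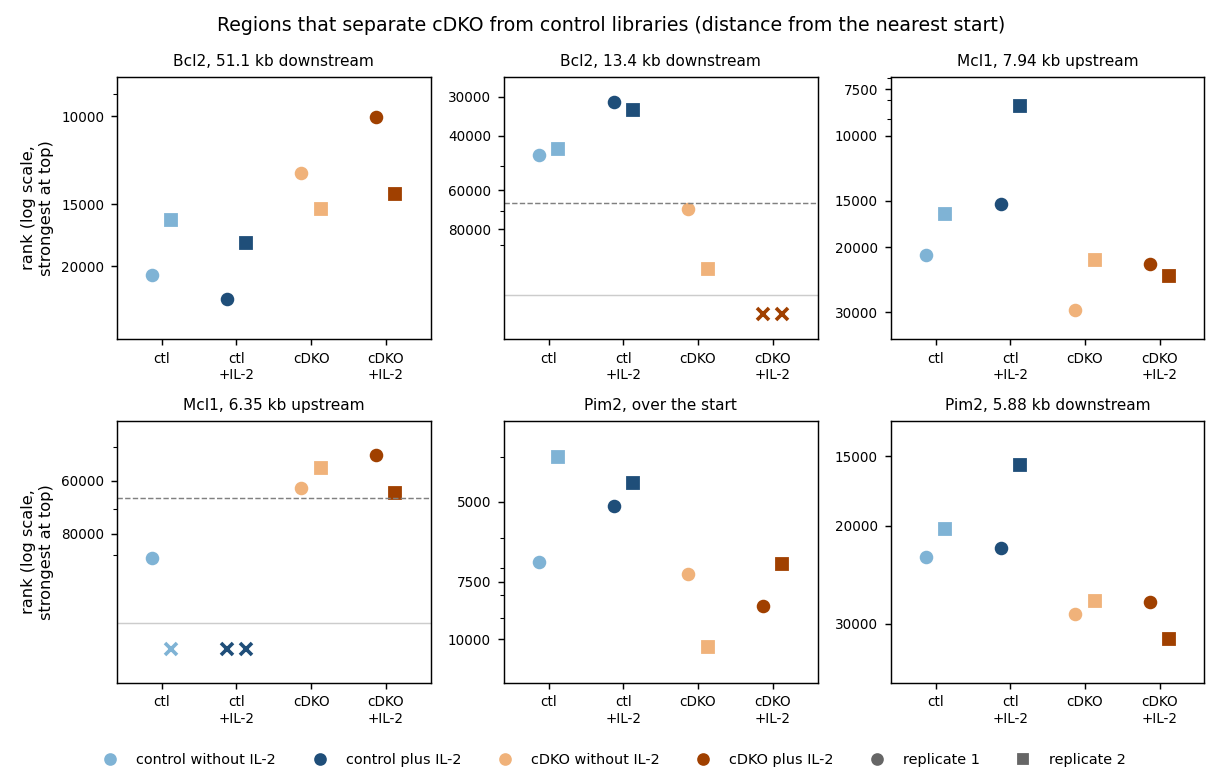
Ranks (log axis, strongest at the top) by group of the 6 member regions that separate cDKO from control libraries. Crosses below the grey line are libraries whose deposited list holds no peak in the region, and the dashed line marks rank 65811.

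Within single arms 2 libraries stood on each side. Without IL-2, 3 of 67 member regions were listed only in cDKO (4.48%, background 4.42%) and 2 only in control (2.99%, background 4.81%). With IL-2 it was 3 of 72 (4.17%, background 4.05%) and 4 of 72 (5.56%, background 4.46%). For IL-2 in control cells 3 of 72 were listed only with IL-2 (4.17%, background 2.71%) and 1 only without (1.39%, background 2.84%). In cDKO cells the counts were 2 of 63 (3.17%, background 3.30%) and 0 of 63 (background 3.48%). These comparisons share libraries with one another, and 2 libraries against 2 allow no exact p under 0.05, so none was tested. With 1 library left out the counts, in the same order, were 4 to 5, 3 to 6, 3 to 6, 7 to 10, 5 to 8, 2 to 4, 2 to 5 and 1 to 3, since fewer lists have to agree.

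Several of these regions lay inside Bcl2, and those given here were listed at ranks of 33152 to 63134 in the arms compared. At 106561063 to 106561564 the ranks in cDKO without IL-2 were 83641 and 71172, against 51126 and 43900 in control. A region at 106629980 to 106630161 was listed in cDKO without IL-2 at 63134 and 55202, and in control without IL-2 only replicate 1 held it, at 83053. With IL-2, the region at 106552368 to 106552519 ranked 51715 and 61330 in cDKO and 70755 in control replicate 1, with no peak in replicate 2. The region at 106581837 to 106582091 ranked 46607 and 57185 in control and 91296 in cDKO replicate 1, with no peak in replicate 2. In cDKO cells, a region at 106618885 to 106619120, next to the IL-2 stretch, ranked 33152 and 50131 with IL-2 and 89512 and 87029 without. In control cells the same region ranked 76238 and 71987 without IL-2. With IL-2 it ranked 63548 in control replicate 1 and had no peak in replicate 2.

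Bcl2l1, which encodes the guardian BCL-XL, had 6 regions in all lists and 0 of them apart by genotype or IL-2. A region 12.0 kb downstream of the nearest start (152816218 to 152816823) ranked 4419 to 12434. Bcl2l1 had calls within arms at 2 places. At 152753926 to 152754467, which lies in the neighbouring gene Cox4i2, control without IL-2 ranked 81582 and 81141, control plus IL-2 63789 and 40955, and cDKO without IL-2 44625 and 47102. Inside the gene at 152775404 to 152775676, control ranked 40871 and 58397 without IL-2. With IL-2 it ranked 69908 in control replicate 1 and had no peak in replicate 2, against 44539 and 58507 in cDKO. Mcl1 had 2 weak regions downstream that only control listed with IL-2: 95663947 to 95664511 at 59205 and 53303, and 95664969 to 95665342 at 60473 and 37499.

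A list of 30 other genes of the death pathway (BCL2 relatives, Pim3, apoptosome genes, IAPs, caspases, Cflar, Fas and Fasl) had 148 regions in at least 1 list and 81 in all 8. Bcl2a1a, Bcl2a1b and Bcl2a1d are near-identical copies whose reads may not be told apart. By genotype 1 region was listed only in cDKO (0.676%, background 0.706%) and 0 only in control (background 1.12%). It lies near Fasl, which encodes the death ligand (chromosome 1, 161779104 to 161779421), at 49416, 55838, 35963 and 37377 in cDKO. The deposited lists of control replicate 1 held it at 112659 without and 72711 with IL-2. By IL-2 1 was listed only with it (0.676%, background 0.348%) and 0 only without (background 0.229%). That region lies at Cflar, which encodes an inhibitor of caspase-8 (chromosome 1, 58728287 to 58728687), at 58180, 48384, 65253 and 46719 with IL-2. Deposited lists without IL-2 held it at 124646 in control replicate 1 and at 85388 and 89019 in cDKO. Of the 81, 5 ranked higher (6.17%) and 7 lower (8.64%) in every cDKO library, and 3 higher (3.70%) and 2 lower (2.47%) in every IL-2 library, beside backgrounds of 6.15%, 5.72%, 2.77% and 3.01%. In regions per library, 4 of the 30 genes had an unadjusted exact permutation p under 0.05 for genotype, 3 higher and 1 lower in cDKO. Over all 17547 genes, 1.54% were higher and 1.64% lower at that threshold. Fas had 2.75 more, Bmf 1.5 more, Fasl 1.00 more and Birc2 1.25 fewer (a difference of -1.25) in cDKO. Each had an exact permutation p of 0.0286 and an adjusted p of 0.898 over all genes. For IL-2 0 of the 30 genes had an unadjusted p under 0.05, and the median difference was 0.125 regions for genotype and 0.25 for IL-2, against 0 over all genes for both.

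Genes with the most similar profile were sought by a score that sums, over a gene's listed regions, how far up the equal-number list each lies. Over the 8 libraries, Pearson's r with Bcl2 was highest for Cd80 (0.982) and Nfkb1 (0.970). For Mcl1 it was highest for Bad and its overlapping neighbour Gpr137 (0.991 each), for Bcl2l1 for Plbd2 (0.984) and Msh4 (0.971), and for Bcl2l11 for Scaf4 (0.966) and Wdr38 (0.949). Pim1 was nearest to H3c3 (0.981) and Gm40363 (0.980), and Pim2 to Spns2 (0.967) and Exoc3 (0.958). These are the top values of 8408 genes over 8 points that share library depth, and 6 to 101 genes exceeded 0.9 for each member.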

How the data were processed

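The authors deposited 1 peak list per library, with a fold over background (a ratio), a −log10 p-value, a −log10 q-value and a score for each peak; the score was not used. Per the submitters' processing notes, which state no order, the build was GRCm38 (mm10) and the tools included MACS2 2.2.7.1, a peak caller, Bowtie2 2.4.1, an aligner, and Trimmomatic 0.39, a read trimmer. The sources used here do not say how reads were shifted, deduplicated or thresholded, and read depth is unknown. The smallest listed −log10 q was 1.30 or 1.31 in each list. The −log10 p at rank 65811 was 3.25 to 13.5, so equal ranks are not equal strengths.

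Peaks overlapping by at least 1 bp were merged (Python 3.11.15, pandas 2.3.3, numpy 2.4.6). Gene bodies and promoter sequences are those of RefSeq GRCm38.p6, without exons, so exonic, intronic or untranslated position was not analysed here. All 6 members and all 30 pathway genes matched. A region was called when it was in the lists of all libraries of a side and in none of the opposite side, or, for regions in all 8 lists, when ranks did not overlap. Regions per gene were compared by exact 2-sided permutation with Benjamini-Hochberg adjustment over 17547 genes, tested on simulated data. Members and lists were chosen with earlier results of these data known. Named were all members, every called region, the best-ranked and start regions, called pathway genes and the 2 most similar genes.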

Additional observations from a re-analysis of the deposited data

Results flagged for a closer look

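A Bcl2 region 66.8 kb downstream of the start (chromosome 1, 106647274 to 106647731) moved in opposite directions with IL-2 in the 2 genotypes. Its ranks were 6830 and 12068 in control without IL-2, 12311 and 13372 in control plus IL-2, 12645 and 16514 in cDKO without IL-2, and 10614 and 10094 in cDKO plus IL-2. The median rank was 3392 places lower in strength with IL-2 in control (12842 against 9449) and shifted by -4225, towards the top, in cDKO (10354 against 14580). Read by genotype, cDKO stood 5130 places further down without IL-2 and -2487, higher up, with it. The difference between arms was not tested. Of the 37 member regions in all 8 lists 1 showed such a crossing (2.70%), against 4.01% (IL-2) and 3.35% (genotype) of 40694 regions.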

How the results depend on the processing

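Counts below are of member regions listed only on the stated side, genotype meaning cDKO higher or lower. With full deposited lists, genotype gave 0 higher and 0 lower over both arms, 0 higher and 4 lower without IL-2 and 2 lower with it, and IL-2 gave 0 lower in control and 4 lower in cDKO. A q-value of 0.01 or less gave the same values and 1 higher for genotype with IL-2. Halved lists gave 0 and 0 for genotype over both arms, 1 and 1 without IL-2, 1 and 0 with it, 0 higher for IL-2 over both genotypes, 0 higher and 2 lower in control, 1 lower in cDKO, and 0 lower by ranks for IL-2. Ranking by fold gave 0 and 0 for genotype over both arms, 1 higher with IL-2, 2 lower for IL-2 in control, 1 lower in cDKO, and by ranks 0 higher and 1 lower for genotype and 1 higher and 0 lower for IL-2. Requiring peaks to cover 50% of a region gave 3 lower for genotype over both arms and 4 lower without IL-2, and 0 higher for IL-2 over both genotypes, 1 higher in control and 4 higher in cDKO. Gene bodies alone gave 0 higher for genotype over both arms, 1 higher without IL-2, 2 lower with it, 1 higher for IL-2 in control, and by ranks 1 lower for genotype and 0 lower for IL-2. A window of 50 kb gave 2 higher for genotype over both arms, 7 higher without IL-2, 5 higher with it, 2 lower for IL-2 in cDKO and 2 higher by ranks for genotype.

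Leaving out 1 library in turn gave, for genotype over both arms, 1 to 2 higher and 1 to 2 lower, for IL-2 over both genotypes 1 to 2 higher, for genotype without IL-2 4 to 5 higher and 3 to 6 lower, with IL-2 3 to 6 higher and 7 to 10 lower, for IL-2 in control 5 to 8 higher and 2 to 4 lower, and in cDKO 2 to 5 higher and 1 to 3 lower. By ranks it gave 1 to 4 higher for genotype and 1 to 4 lower for IL-2. Fewer libraries have to agree then, so such counts can only stay or grow.

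Directions turned for these differences in regions per library, none past the threshold. For genotype, Bcl2 became 0.5 with halved lists, Bcl2l1 became 1.00 with halved lists and by fold, 0.25 at the stricter q-value and with 50 kb, 0.333 without control plus IL-2 replicate 1 and 0.0833 without cDKO plus IL-2 replicate 1 (range -0.667 to 0.333), Bcl2l11 became -0.75 with 50% cover, and with 50 kb Mcl1 became 1.75 and Pim1 0.5. For IL-2, Bcl2 became -4.25 with full lists and -4.5 at the stricter q-value, Bcl2l11 -0.25 at that q-value and with 50 kb, Mcl1 -0.25 with 50 kb, and Bcl2l1 0.0833 without control plus IL-2 replicate 2 or cDKO plus IL-2 replicate 1 (range -0.917 to 0.0833). The Bcl2 region at 106612394 to 106613261 turned to 520 places lower with IL-2 by fold. The cause was not tested.

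The labels do not say whether replicate numbers pair libraries. Correlations of replicate differences between groups ran from -0.19 to 0.38, the highest between the control groups without and with IL-2. With 2 libraries a group, each group gives a single difference, so these values cannot decide it. With the replicate number as a block, Bcl2 differed by -4.25 between genotypes at an exact permutation p of 0.0556, the smallest this relabelling allows, and 0 genes passed for either factor. Unknown read depth, 2 libraries a group and ranks that carry no absolute scale limit all comparisons, and an unlisted region is below a list's end and not shown to be closed.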
